A study of Mus musculus with 8 samples.

Results

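The 35 genes described here encode secreted proteins of blood clotting, of fibrinolysis and of the complement system. They were chosen by name, from a list of clotting, fibrinolysis and complement genes, and make up 35 of the 33630 genes and unnamed features tested on the arrays. These genes and the comparison lists below were chosen with earlier results of these data known. The shares over all features set beside them are therefore a description and not a test. Each gene is represented by its brightest probe. Mesonephric tubules had been microdissected from toluidine-blue-stained frozen sections of mouse embryos. 3 samples were labelled p21-null (p21-/-, lacking the cell cycle inhibitor encoded by Cdkn1a) and 5 were wild type, all of the strain given as C57/BL6, with no treatment separating the groups. The allele and the embryos' stage are not given in the sources used here, nor is it stated whether samples were single embryos or pools, so p-values measure the spread between these samples, which may be technical.

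Clotting is a relay of serine protease precursors that circulate in plasma, each cut and activated by the one before it, until thrombin cuts fibrinogen into fibrin. Plasmin, made from plasminogen, dissolves that fibrin again. Complement is a second protease relay, begun by antibody (classical route), by sugars on microbes (lectin route) or on surfaces directly (alternative route), which meets at C3 and ends in a pore assembled from the terminal components. Most of these proteins are made by hepatocytes in the liver and released into the blood, and the mesonephros, a transient embryonic kidney, is not known as a main source of them.

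Levels below are log2 intensities relative to the 75th percentile of the same array, and differences are labelled p21-null mean minus wild-type mean on that log2 scale; values are listed in the order of replicates 1 to 3 and 1 to 5. Between 82.4% and 89.3% of 55681 probes stood well above background on each array. A code in the deposited name of each scan was read here as its slide, which the sample labels do not give. By that code the arrays lay on 3 slides, each holding 1 labelled p21-null array. Wild-type replicates 1, 2 and 3 were on slide 1, replicate 4 on slide 2 and replicate 5 on slide 3. Cdkn1a itself did not separate the groups. Its brighter probe gave 2.11, 0.96 and 1.40 on the labelled p21-null arrays, against 2.49, 2.52, 0.44, 1.85 and 1.11 on the wild-type arrays, a difference of -0.19 (exact permutation p = 0.768, two-sided). The second probe differed by -0.24 (exact permutation p = 0.482), and the part of the transcript removed by the allele is not given, so the genotype is quoted throughout as labelled.

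Clotting and complement genes were higher in the labelled p21-null tubules in nearly every case: 34 of 35 had a positive difference, against 47.7% of all 33630 genes and features. Their median difference was 2.51 on the log2 scale, against -0.03 over all features, and single genes ran from -0.10 (Hrg) to 4.04 (Masp1). At least a 2-fold higher mean was found for 29 of the 35 genes, where 7.78% of all features had one, at least a 4-fold higher mean for 26, where 1.83% of all features had one, and at least an 8-fold higher mean for 11, where 0.404% had one. No difference passed the adjusted p threshold of 0.05 in limma's moderated test, among these genes (adjusted p 0.148 to 0.975) or among all features (0.0% called). At an unadjusted limma p under 0.05, 27 of the 35 were higher and 0 lower, where 6.2% of all features were higher and 3.92% lower (10.1% either way). The exact permutation test reached fewer: its p was 0.0179 for F11, Kng1, Plg, C3 and Cfb, and 0.0357 for Klkb1, Serpinf2, C2, Masp1, C8a and C8b. Every other gene had a permutation p of 0.0536 or more, Mbl2 and Cfi included. With an unadjusted limma p under 0.01 and a 2-fold difference, 18 were higher, against 2.09% of all features, and 0 were lower, against 0.856% (2.95% either way).

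These counts depended on single arrays. Without p21-null replicate 1, 2 genes (F11 and Plg) met the rule of p under 0.01 and 2-fold (0.833% of all features did), and without p21-null replicate 3 the same 2 did (0.529%). Without wild-type replicate 4 the number was 6 (1.67% of all features), and without wild-type replicate 1 it was 8 (1.74%). F11 and Plg met it in all 22 settings tried, the main one included. In this bulk material, fewer cells of a type and less RNA per cell cannot be told apart.

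**Figure D1:**
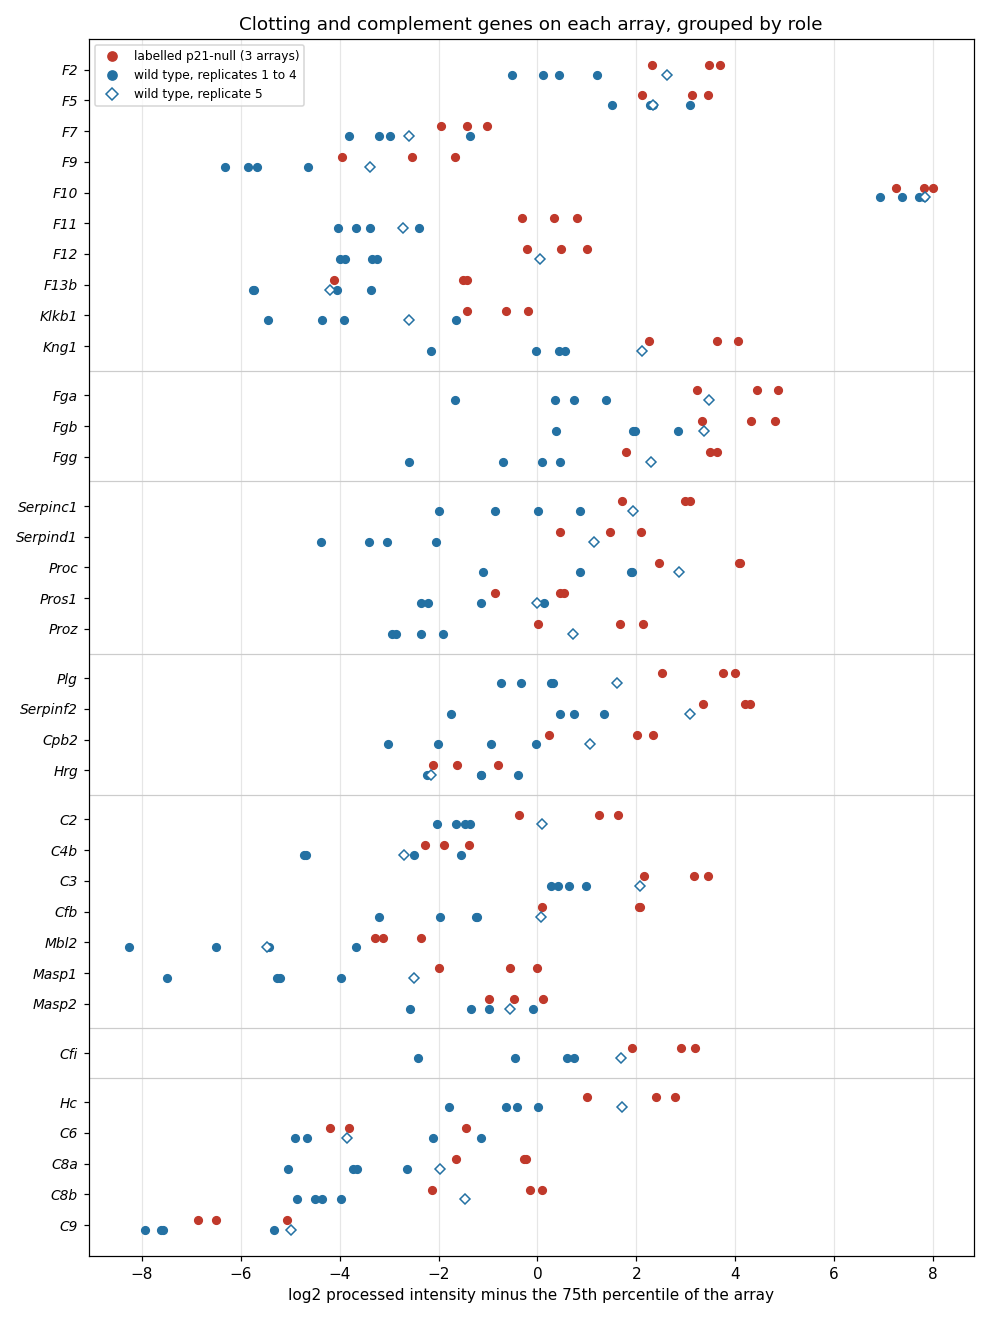
Level of each of the 35 genes on each of the 8 arrays (log2 intensity relative to the array's 75th percentile), with genes in rows grouped by role. In each row the labelled p21-null points are drawn just above the wild-type points. All 3 labelled p21-null arrays were above all 5 wild-type arrays for 11 genes, and wild-type replicate 5 was the highest wild-type array for 24.

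The 2 groups did not overlap, with every labelled p21-null array above every wild-type array, for 11 of the 35 genes: F11, Klkb1, Kng1, Plg, Serpinf2, C3, Cfb, Mbl2, Masp1, Cfi and C8a (4.4% of all features). In the others the overlap most often involved p21-null replicate 2 and wild-type replicate 5. Wild-type replicate 5 was the highest wild-type array for 24 genes, and it stood at or above the lowest labelled p21-null array for 20. Another wild-type array did so for 10. P21-null replicate 2 was the lowest of its group for 31 genes. Without wild-type replicate 5, 25 genes did not overlap (7.09% of all features), and without p21-null replicate 2, 28 did not (10.3%). For 22 genes the 4 highest arrays were the 3 labelled p21-null arrays and wild-type replicate 5, a pattern held by 4.5% of all features.

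Among the proteases and cofactors that start and carry clotting (10 genes), 8 were higher at an unadjusted p under 0.05 and 0 lower (6.2% and 3.92% of all features), with a median difference of 2.42. F11, the precursor of factor XIa, which activates factor IX, had the smallest adjusted p of the 35 genes. It measured 0.79, -0.31 and 0.34 on the labelled p21-null arrays, against -3.39, -4.04, -2.40, -3.66 and -2.72 on the wild-type arrays. The lowest labelled p21-null array was thus above the highest wild-type array, replicate 3, and wild-type replicate 5 was not unusual here. F11 averaged 0.27 ± 0.55 in labelled p21-null tubules and -3.24 ± 0.67 in wild-type tubules (SD, n = 3 and n = 5), an 11.4-fold difference (3.51 ± 0.45, SE; limma adjusted p = 0.148; exact permutation p = 0.0179, the smallest that 56 splits allow). With array weights in the fit its adjusted p was 0.0467, the 1 setting in which any of the 35 genes passed.

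Klkb1 encodes plasma prekallikrein, which together with factor XII starts the contact route, and is the next protein-coding gene to F11 on chromosome 8. Its levels were -0.18, -1.43 and -0.64 on the labelled p21-null arrays, against -4.36, -5.46, -1.64, -3.92 and -2.59 on the wild-type arrays. The groups did not overlap, wild-type replicate 3 coming closest, and the difference was 2.84 ± 0.80 (SE; limma adjusted p = 0.307). Kng1 encodes high molecular weight kininogen, the carrier of prekallikrein and factor XI in plasma. It measured 4.06, 2.25 and 3.63 on the labelled p21-null arrays, against 0.44, -2.16, 0.56, -0.03 and 2.13 on the wild-type arrays, an 8.72-fold difference with no overlap (3.12 ± 0.85, SE; limma adjusted p = 0.299). Wild-type replicate 5 lay just under p21-null replicate 2 for Kng1, and wild-type replicate 2 was far below the rest.

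F12, the precursor of the protease that opens the contact route, showed the position of wild-type replicate 5 plainly. It stood at 0.48, -0.20 and 1.0 on the labelled p21-null arrays, against -3.90, -3.98, -3.25, -3.34 and 0.05 on the wild-type arrays. The first 4 wild-type arrays were at least 3 log2 units below every labelled p21-null array, and the fifth was among the labelled p21-null values, and the mean difference was 3.31 ± 0.87 (SE; limma adjusted p = 0.292).

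Because F11 and Klkb1 lie side by side and both separated the groups without overlap, their upstream sequences are shown, 250 bases each, read 5′ to 3′ towards the gene from the RefSeq promoter table of assembly GRCm38.p6. Capitals mark each match to TGTTTNC on either strand, the core letters bound by FOXA factors, which open liver enhancers. F11 is at chr8:45262032-45262281 and Klkb1 at chr8:45294836-45295085, both on the minus strand. The F11 window reaches inside the outermost annotated start of the gene, at 45262055. Nearly all of the F11 match near the 3′ end therefore lies inside that start.
F11: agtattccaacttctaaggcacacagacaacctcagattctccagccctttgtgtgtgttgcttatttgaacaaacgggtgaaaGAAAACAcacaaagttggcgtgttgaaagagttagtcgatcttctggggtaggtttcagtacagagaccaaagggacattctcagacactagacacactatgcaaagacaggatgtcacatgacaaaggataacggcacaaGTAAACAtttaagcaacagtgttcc
Klkb1: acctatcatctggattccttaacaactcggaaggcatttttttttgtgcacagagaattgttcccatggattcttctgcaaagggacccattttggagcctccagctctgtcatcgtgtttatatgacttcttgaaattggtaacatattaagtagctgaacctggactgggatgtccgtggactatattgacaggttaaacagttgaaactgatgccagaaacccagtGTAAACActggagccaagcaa
Each holds a match near its 3′ end, read here as GTAAACA. Such a match is a description of the letters and not a measured binding site.

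Thrombin's precursor F2 was 5.23-fold higher in labelled p21-null tubules (2.39 ± 0.68, SE), at 3.69, 2.33 and 3.47 on the labelled p21-null arrays, against 0.44, -0.51, 1.21, 0.11 and 2.63 on the wild-type arrays. Again wild-type replicate 5 was above p21-null replicate 2, and the other wild-type arrays were below all 3 labelled p21-null arrays. F9, whose loss causes haemophilia B, differed by 2.46 and was well above background on 3 of 3 labelled p21-null arrays and 3 of 5 wild-type arrays. F13b, the carrier subunit of the enzyme that crosslinks fibrin, differed by 2.28 and was above background on 3 of 3 and 4 of 5 arrays. F7, which starts clotting with tissue factor, differed by 1.32 (limma adjusted p = 0.447). F5, the cofactor of factor Xa, differed by 0.59 (adjusted p = 0.73) and F10, factor X itself, by 0.15 (adjusted p = 0.931), both with overlapping groups; their second probes gave other values, described below.

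The 3 fibrinogen chains, whose genes are direct neighbours on chromosome 3 in the order Fgg, Fga, Fgb, kept to 1 pattern. Fga measured 4.86, 3.23 and 4.43 on the labelled p21-null arrays, against 0.73, -1.67, 1.39, 0.36 and 3.46 on the wild-type arrays. Wild-type replicate 5 was above p21-null replicate 2, the other wild-type arrays were below all of the labelled p21-null arrays, and the difference was 3.32 ± 0.98 (SE, 9.97-fold; limma adjusted p = 0.322). Fgg stood at 3.64, 1.79 and 3.50 on the labelled p21-null arrays, against -0.69, -2.59, 0.45, 0.09 and 2.29 on the wild-type arrays, a difference of 3.07 ± 0.96 (adjusted p = 0.344). Fgb stood at 4.80, 3.33 and 4.33 on the labelled p21-null arrays, against 1.93, 0.37, 2.85, 1.98 and 3.37 on the wild-type arrays, with the smallest difference of the 3 at 2.05 ± 0.66 (adjusted p = 0.351). In all 3 the order of arrays was the same at both ends, with p21-null replicate 1 highest and wild-type replicate 2 lowest.

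The sequences upstream of Fga and Fgb, which share the pattern and run in opposite directions, are shown in the same way from the same table. Fga is on the plus strand at chr3:83025903-83026152 and Fgb on the minus strand at chr3:83049864-83050113. Capitals mark TGTTTNC matches and, in Fga, a match to TTGCNNAAT, the palindromic consensus of C/EBP factors, on the other strand.
Fga: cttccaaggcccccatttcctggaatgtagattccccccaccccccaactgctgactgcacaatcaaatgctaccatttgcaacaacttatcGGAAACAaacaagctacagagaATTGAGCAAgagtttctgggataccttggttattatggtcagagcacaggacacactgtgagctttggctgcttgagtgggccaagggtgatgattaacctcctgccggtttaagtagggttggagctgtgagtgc
Fgb: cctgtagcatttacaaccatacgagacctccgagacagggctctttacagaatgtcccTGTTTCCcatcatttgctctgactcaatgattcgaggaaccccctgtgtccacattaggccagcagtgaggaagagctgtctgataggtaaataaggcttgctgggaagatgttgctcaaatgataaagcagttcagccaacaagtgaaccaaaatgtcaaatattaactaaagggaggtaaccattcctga
Fga holds both motifs and Fgb the FOXA letters alone.

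Of 5 clotting inhibitors and protein C pathway genes, 4 were higher at an unadjusted p under 0.05 (6.2% of all features), with a median difference of 2.60. Serpind1, heparin cofactor II, an inhibitor of thrombin, also had a large difference. It measured 2.09, 0.45 and 1.47 on the labelled p21-null arrays, against -2.05, -4.38, -3.40, -3.05 and 1.15 on the wild-type arrays. The first 4 wild-type arrays were at least 2 log2 units below the lowest labelled p21-null array and the fifth was among the labelled p21-null values; the mean difference was 3.68 ± 1.10 (SE, 12.8-fold; limma adjusted p = 0.324). Proz, protein Z, a cofactor in the inhibition of factor Xa, stood at 2.13, 0.02 and 1.68 on the labelled p21-null arrays, against -2.36, -2.94, -2.86, -1.91 and 0.73 on the wild-type arrays, with the same division of arrays and a difference of 3.14 ± 0.86 (adjusted p = 0.299).

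Serpinc1, antithrombin, the main inhibitor of thrombin and factor Xa, was 6.08-fold higher (2.60 ± 0.82, SE), and its groups overlapped through p21-null replicate 2 (1.70) and wild-type replicate 5 (1.94). Proc, protein C, which once activated cuts factors V and VIII, differed by 2.25 ± 0.84 (adjusted p = 0.409). Pros1, its cofactor protein S, which endothelial cells also make, differed by 1.17 ± 0.68 (adjusted p = 0.632) and did not pass at an unadjusted p under 0.05. Wild-type replicate 2, the lowest wild-type array for 21 of the 35 genes, was the highest one for Pros1.

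In fibrinolysis, 3 of 4 genes were higher at an unadjusted p under 0.05 (6.2% of all features). Plg, plasminogen, measured 3.99, 2.53 and 3.76 on the labelled p21-null arrays, against 0.32, -0.74, 0.28, -0.32 and 1.62 on the wild-type arrays. The groups did not overlap, wild-type replicate 5 again coming closest, and the difference was 3.19 ± 0.56 (SE, 9.16-fold; limma adjusted p = 0.283; exact permutation p = 0.0179). Serpinf2, the antiplasmin that blocks plasmin, stood at 4.30, 3.34 and 4.20 on the labelled p21-null arrays, against 1.35, -1.75, 0.74, 0.46 and 3.09 on the wild-type arrays, also without overlap and with a difference of 3.17 ± 0.90 (adjusted p = 0.308). The gap between p21-null replicate 2 and wild-type replicate 5 was small for Serpinf2. Cpb2, a carboxypeptidase that slows fibrin breakdown, differed by 2.51 ± 0.90 (adjusted p = 0.398), with overlapping groups.

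Hrg, histidine-rich glycoprotein, which binds plasminogen and heparin, was the 1 gene with a negative difference. It measured -0.80, -1.62 and -2.10 on the labelled p21-null arrays, against -0.39, -1.15, -1.13, -2.24 and -2.15 on the wild-type arrays. The groups lay across the same range, wild-type replicate 1 was highest and wild-type replicate 5 among the lowest, and the difference was -0.10 ± 0.50 (SE; limma adjusted p = 0.975; exact permutation p = 0.893). Its sign was not stable: within slides the differences were 0.09, 0.62 and 0.05, all positive. Kng1 lies on chromosome 16 with 1 protein-coding gene between it and Hrg, and had the 8.72-fold difference given above. The 250 bases upstream of Hrg (chr16:22950822-22951071, plus strand, GRCm38.p6) held none of the 4 motifs searched and so carry no capitals. Windows of some genes with large differences also lacked the FOXA letters, and some genes with small differences had them, as given below.
Hrg: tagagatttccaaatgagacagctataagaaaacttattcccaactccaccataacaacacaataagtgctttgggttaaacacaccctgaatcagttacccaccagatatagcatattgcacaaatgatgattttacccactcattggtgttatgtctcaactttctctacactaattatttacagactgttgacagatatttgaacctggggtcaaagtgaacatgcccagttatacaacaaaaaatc
The absence of a match says only that these letters are not in this window.

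Complement genes as a set of 13 had a median difference of 2.28, close to the 2.56 of the 22 clotting and fibrinolysis genes. Of the 13, 9 were higher at an unadjusted p under 0.05 and 0 lower, where 6.2% of all features were higher and 3.92% lower. Masp1, a protease that with mannose-binding lectin starts the lectin route, had a difference of 4.04 ± 0.99 (SE; limma adjusted p = 0.288). It measured -0.01, -1.99 and -0.56 on the labelled p21-null arrays, against -5.26, -3.98, -7.50, -5.20 and -2.49 on the wild-type arrays. The groups did not overlap, but the wild-type arrays were widely spread and replicate 3 was not well above background. That was the largest difference of the 35 with all arrays in, but without wild-type replicate 3 Masp1 differed by 3.38 and F11 by 3.72, and with normexp or in the deposited table Fga had the largest. Mbl2, the mannose-binding lectin itself, stood at -3.12, -2.36 and -3.29 on the labelled p21-null arrays, against -5.43, -8.26, -3.67, -6.50 and -5.46 on the wild-type arrays, without overlap, and was well above background on 3 of 3 and 3 of 5 arrays. Its difference was 2.94 ± 0.87 (adjusted p = 0.322), and unlike most of the genes it was highest on p21-null replicate 2.

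C3, on which all routes meet, measured 3.45, 2.15 and 3.17 on the labelled p21-null arrays, against 0.65, 0.42, 0.98, 0.27 and 2.07 on the wild-type arrays. The lowest labelled p21-null array was just above wild-type replicate 5, and the difference was 2.05 ± 0.48 (SE, 4.13-fold; limma adjusted p = 0.283). Cfb, the protease of the alternative route, stood at 2.08, 0.10 and 2.06 on the labelled p21-null arrays, against -1.97, -3.20, -1.22, -1.25 and 0.07 on the wild-type arrays, a difference of 2.93 ± 0.74 (adjusted p = 0.288) in which p21-null replicate 2 and wild-type replicate 5 nearly met. C2, the matching protease of the classical and lectin routes and the neighbour of Cfb on chromosome 17, differed by 2.12 ± 0.59 (adjusted p = 0.306). C4b, which C2 joins, differed by 1.38 ± 0.74 (adjusted p = 0.601); its near-identical copy C4a makes that value uncertain. Masp2, the other lectin route protease, differed by 0.66 ± 0.55 (adjusted p = 0.775) on its brightest probe.

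Cfi, the protease that inactivates C3b and so restrains the relay, measured 3.19, 1.91 and 2.91 on the labelled p21-null arrays, against 0.60, -2.42, 0.73, -0.44 and 1.69 on the wild-type arrays, without overlap and with a difference of 2.64 ± 0.83 (SE; limma adjusted p = 0.345). In the terminal pathway, 3 of 5 genes were higher at an unadjusted p under 0.05 (6.2% of all features). C8a and C8b, chains of C8 encoded side by side on chromosome 4, differed by 2.70 ± 0.68 and 3.1 ± 0.82 (adjusted p = 0.288 and 0.292). C8a stood at -0.22, -1.64 and -0.27 on the labelled p21-null arrays, against -3.65, -3.73, -2.63, -5.05 and -1.96 on the wild-type arrays. Its groups did not overlap. C8b stood at 0.10, -2.14 and -0.15 on the labelled p21-null arrays, against -4.86, -4.35, -3.97, -4.49 and -1.47 on the wild-type arrays, where wild-type replicate 5 again passed p21-null replicate 2. Hc, which encodes C5, differed by 2.28 ± 0.74 (adjusted p = 0.36). C6, which joins C5b to begin the pore, differed by 0.19 ± 0.98 (adjusted p = 0.975), its spread within each group being larger than the difference. C9, which forms the ring of the pore, was well above background on 1 of 3 labelled p21-null arrays and 2 of 5 wild-type arrays, so its difference of 0.54 ± 0.80 rests mostly on signals not well above background.

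The choice of the brightest probe changed the size of the difference most for 3 of the 8 genes with several probes. F10 was the clearest. Its brighter probe gave 7.25, 8.01 and 7.83 on the labelled p21-null arrays, against 7.73, 6.93, 7.38, 7.82 and 7.85 on the wild-type arrays, while its second probe gave 3.25, 1.86 and 3.20 on the labelled p21-null arrays, against -2.15, -4.26, -0.38, -1.09 and 1.63 on the wild-type arrays. The first probe was high and flat on every array, and the second separated the groups without overlap and with the array order of the other clotting genes; their differences were 0.15 and 4.02. Neither value can be preferred from these files. F5 differed by 0.59 and 2.61. The 3 probes of Masp2 differed by 0.66, 2.33 and 0.16, and the third is matched to a different RefSeq transcript of the gene. The probes of Kng1 (3.12 and 3.31), Fga (3.32 and 3.46), C3 (2.05 and 2.60), F7 (1.32 and 1.08) and C8a (2.70 and 3.82) had the same sign and were closer to each other. Whether the groups overlapped still depended on the probe. On the second probes of Kng1 and C3 they did overlap (exact permutation p = 0.0536 for each). On the second probe of Fga they did not (exact permutation p = 0.0179).

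**Figure D2:**
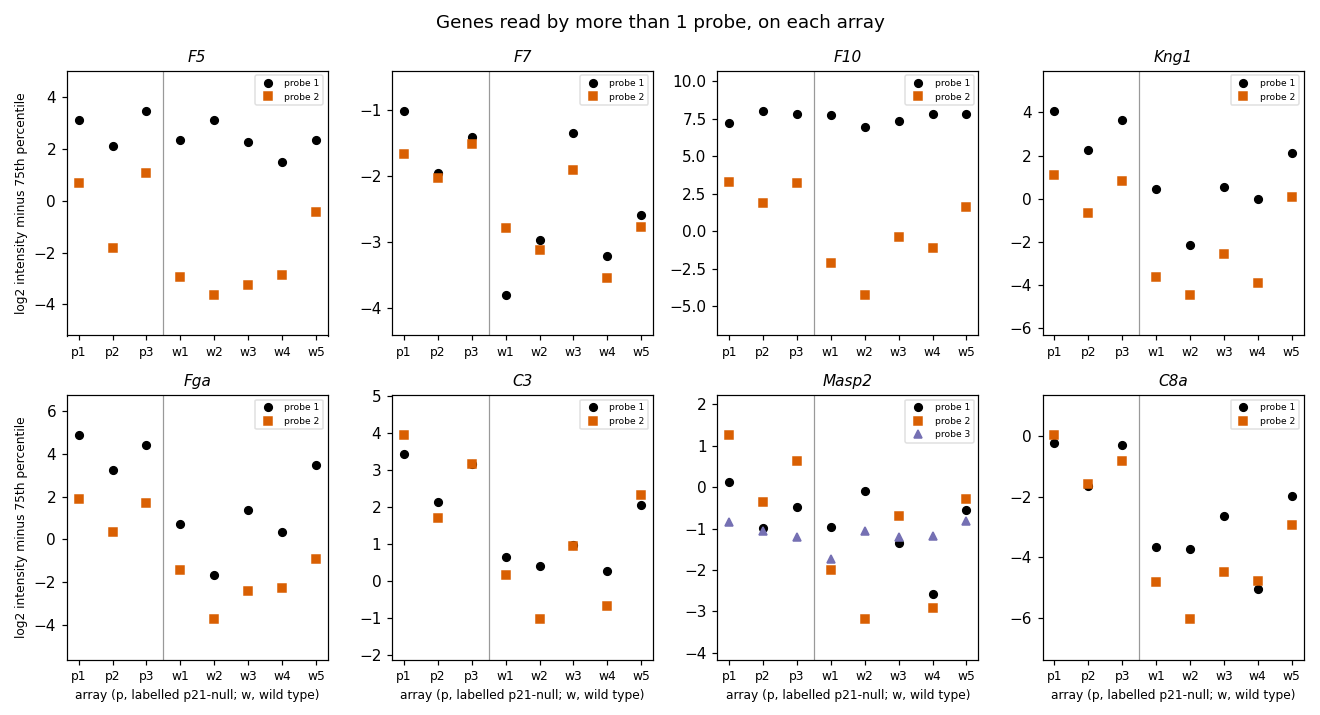
Level of each probe of the 8 genes with several probes on each array, with a panel for each gene and probes numbered from the brightest. Levels are on the log2 scale used in the text, with labelled p21-null arrays before wild-type arrays. The difference between the groups varied widely from probe to probe for F10, F5 and Masp2. It varied less for Kng1, Fga, F7, C3 and C8a.

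Each slide carried both groups, so the difference was also taken within slides. It was positive for 34 of 35 genes on slide 1 (41.9% of all features), for 34 on slide 2 (55.9%) and for 33 on slide 3 (51.3%), and positive on all 3 for 33 genes (15.7% of all features). The size differed between slides. The median was 3.46 on slide 1, where p21-null replicate 1 was set against the mean of wild-type replicates 1, 2 and 3, 1.93 on slide 2 and 1.10 on slide 3, while the median over all features was -0.17, 0.13 and 0.02. The largest within-slide difference lay on slide 1 for 28 genes and the smallest on slide 3, the slide of wild-type replicate 5, for 28. On slide 3 the difference was over 2 log2 units for 4 genes, F11 (3.05), F13b (2.70), Mbl2 (2.17) and Plg (2.14), while Serpind1 differed by 5.37 on slide 1 and 0.32 on slide 3. With slide as a fixed block in limma, 14 of the 35 genes met the rule of p under 0.01 and 2-fold, where 2.07% of all features were higher by it. None passed the adjusted threshold. F11 differed by 3.57 (adjusted p = 0.261) and Plg by 3.16 (adjusted p = 0.261) in that fit.

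**Figure D3:**
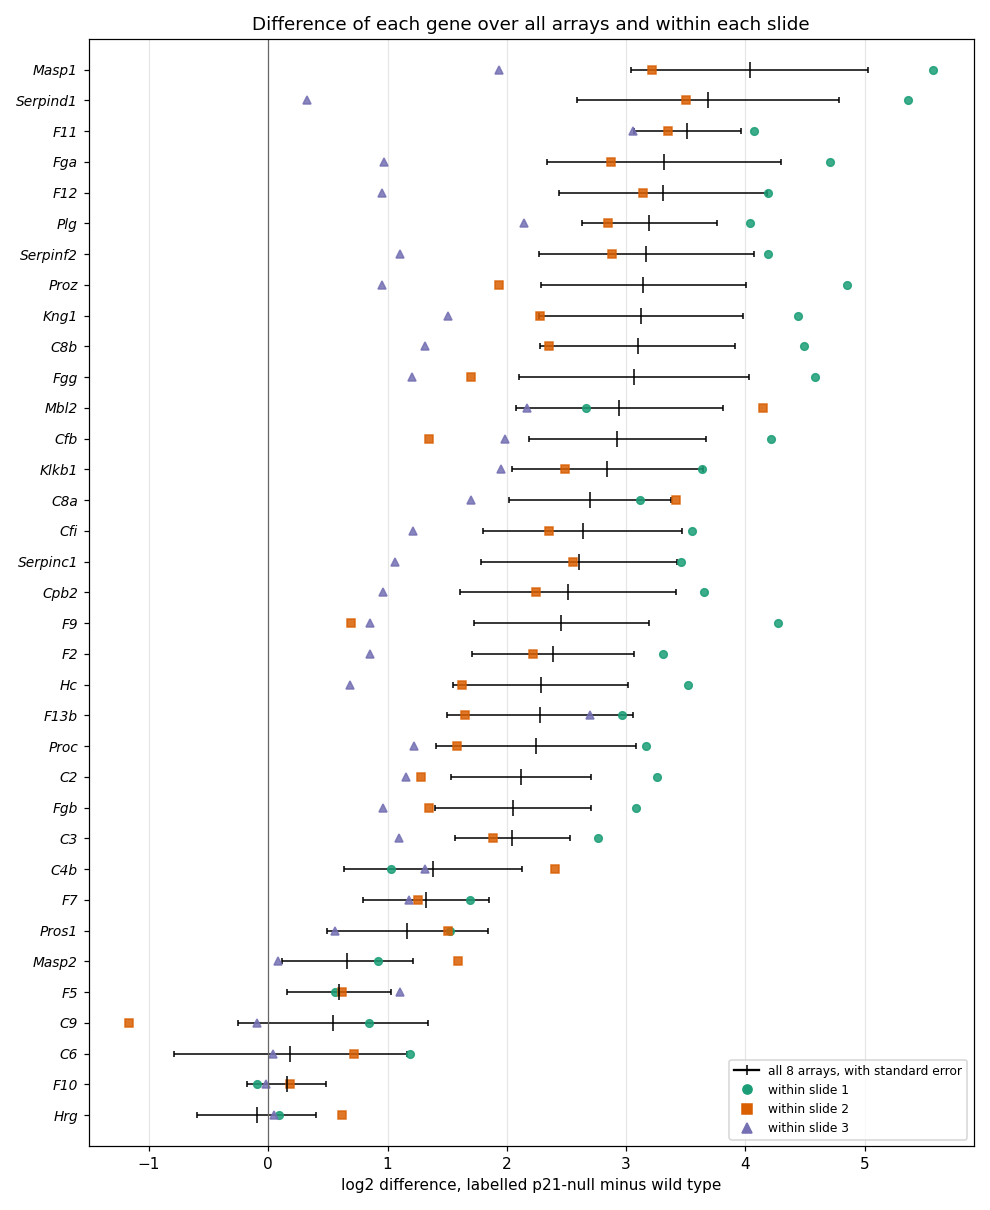
Within-slide log2 difference, labelled p21-null minus wild type, for each of the 35 genes on slides 1, 2 and 3. Points of slide 1 lie furthest above 0 for 28 genes and those of slide 3 lie lowest for 28.

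The genes varied together over the arrays, and with other liver genes. A list of 25 genes of hepatocytes outside the 35 (albumin, transthyretin, apolipoproteins and others, Vtn among them) averaged 3.17, 1.80 and 2.90 on the labelled p21-null arrays, against 0.41, -1.37, 0.58, 0.04 and 2.05 on the wild-type arrays. That is the order seen for most of the clotting and complement genes, with wild-type replicate 5 highest and replicate 2 lowest of their group. All 25 were well above background on all 8 arrays; 24 had a positive difference, with a median of 2.47, and 21 were higher at an unadjusted p under 0.05 (6.2% of all features). Their part in the differences of the 35 genes was not tested.

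Over the 8 arrays, the Pearson correlation with this list mean had a median of 0.931 over the 35 genes and was above 0.9 for 20 and above 0.8 for 24. The shares were 1.9% and 5.18% of 18015 named genes outside the hepatocyte list, the 35 among them. After Benjamini-Hochberg adjustment over the 35, 24 had an adjusted exact permutation p under 0.05 for Pearson's r and 23 for Spearman's rho. Leaving out p21-null replicate 1 and wild-type replicate 2, the arrays farthest from the median of the list mean, left a median r of 0.942. After the mean of each group was subtracted the median was 0.827, and after the mean of each slide was subtracted, a step added after seeing the data, it was 0.916, with 20 genes above 0.9. The arrays share dissection and slides, and the values are a description. Fga (0.997) was highest, F11 had 0.887, Mbl2 0.803, C6 0.304 and Hrg -0.193; with slide means subtracted, C6 had 0.751 and Hrg 0.45. Over the 595 pairs among the 35 genes the median r was 0.764, with 7.06% below 0.

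**Figure D4:**
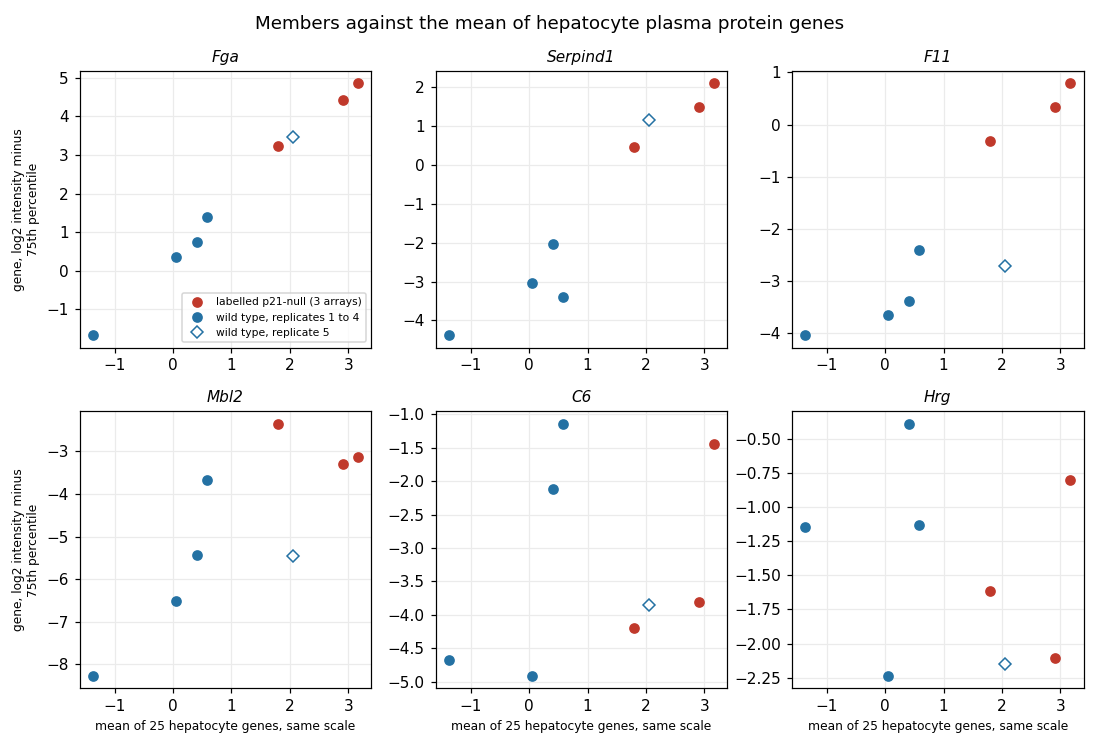
Levels of Fga, Serpind1, F11, Mbl2, C6 and Hrg, 1 panel each, against the mean level of 25 hepatocyte genes outside the 35, with 1 point per array (labelled p21-null red, wild type blue with replicate 5 as an open diamond; both axes log2 relative to the array's 75th percentile). Fga follows the hepatocyte mean (r = 0.997 over 8 arrays), and Hrg does not (r = -0.193).

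Of 18005 other named genes, those whose profile was most like the mean of the 30 genes above background on all 8 arrays were Apoa1 (r = 0.995), Cyp2c29 (0.995), 1300017J02Rik (0.994), AI662270 (0.994), Pzp (0.993), Marco (0.992), Cyp2c68 (0.991), Cyp2c23 (0.990), Pigq (0.989) and Kel (0.989). Apoa1 encodes the main protein of high density lipoprotein, the Cyp2c genes encode drug and fatty acid oxidising enzymes, Marco a scavenger receptor of macrophages and Kel a red cell surface protein.

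The rest of both pathways was read from lists of their other genes. Of 26 other complement genes measured, 13 were higher and 1 lower at an unadjusted p under 0.05 (6.2% and 3.92% of all features), with a median difference of 1.03. Fcna, the ficolin of the lectin route, differed by 3.46 ± 0.68 (SE; limma adjusted p = 0.283), Colec11, a collectin, by 2.51 ± 0.55, C1ra, the first protease of the classical route, by 2.74 ± 0.64, and C8g, the third chain of C8, by 2.77 ± 0.69. The one on the lower side was Cfd, factor D, made mainly by fat cells, at -1.28 ± 0.37 (adjusted p = 0.312). The receptors C3ar1 (0.33) and C5ar1 (0.70) and the widely made inhibitors Clu (-0.17) and Serping1 (0.65) differed less, with unadjusted p above 0.05.

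Of 28 other clotting and fibrinolysis genes, many of them receptors and proteins of vessel walls, 4 were higher and 1 lower at an unadjusted p under 0.05, with a median difference of 0.38. Over all features 6.2% were higher and 3.92% lower, so 1 of 28 lower is near the share of all features. F2rl2, a thrombin-activated receptor, differed by 3.55 ± 0.87 (SE; limma adjusted p = 0.288) and Serpina10, the partner of protein Z, by 2.55 ± 0.73 (adjusted p = 0.308). Plau, urokinase, which activates plasminogen, was not well above background on any labelled p21-null array and was above it on all 5 wild-type arrays, with measured means of -7.51 in labelled p21-null tubules and -4.56 in wild-type tubules. It was at least 2.55-fold lower in labelled p21-null tubules, a bound set by the lowest signal well above background. The measured difference between these means had a limma adjusted p of 0.283. Tissue factor, F3 (-0.52), and the fibrinolysis activator Plat (-1.58) had unadjusted p above 0.05, as did the enzymes of the vitamin K cycle that clotting factors need, Ggcx (0.57) and Vkorc1 (0.37).

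Marker lists of the labelled tissue and of other cells were read beside these genes. Over 13 tubule and duct genes the mean ranged from -2.41 to -1.53 on the labelled p21-null arrays, against -2.27 to 0.28 on the wild-type arrays; 10 of the 13 had a negative difference, as had 17604 of all 33630 features, with 1 lower at an unadjusted p under 0.05 (Wt1, -1.33), where 3.92% of all features were, and Ret was not well above background on any labelled p21-null array. Pax2, Pax8, Cdh16, Cubn and Lrp2 were above background on all 8 arrays. Over 11 red cell precursor genes the mean ranged from 3.63 to 4.40 on the labelled p21-null arrays, against 1.58 to 3.64 on the wild-type arrays, with 7 higher at an unadjusted p under 0.05 (6.2% of all features). Over 9 macrophage genes it ranged from 0.04 to 0.42 on the labelled p21-null arrays, against -1.04 to 0.11 on the wild-type arrays, with 3 higher, and over 12 endothelial and megakaryocyte genes from -0.51 to 2.11 on the labelled p21-null arrays, against -1.83 to 0.67 on the wild-type arrays, with 7 higher. All markers measured in the red cell, macrophage and endothelial lists were well above background on all 8 arrays; Cd68 and Ahsp were not matched to a probe. The part of these cells in the clotting and complement differences was not tested.

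Promoter windows of 300 bases (250 before and 50 after the start) were in the RefSeq table for 27 of the 35 genes. On either strand, TGTTTNC, the FOXA core, was in 10 of the 27 (37.0%), against 20.5% of all 32851 windows. TTGCNNAAT, for C/EBP, was in 4 (14.8%, against 2.4%), namely C3, C9, F9 and Fga. An HNF1 motif of 10 letters was in 2 (7.41%, against 0.399%), F13b and Hc, and CAAAGTCCA, for HNF4, was in 0 (against 0.475%). No motif contains another. The windows with FOXA letters belonged to F11, Klkb1, Fga, Fgb, Serpind1, C8a and C8b, which had large differences, and also to C6, F10 and Pros1, which had small ones on the probes used. Windows without FOXA letters also belonged to genes with large differences, among them F9 (2.46), F13b (2.28), Hc (2.28) and C3 (2.05), and to C9 (0.54) and Hrg (-0.10). Whether the letters go with the size of the difference was not tested.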

How the data were processed

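Total RNA was hybridised to 1-colour arrays. The deposited intensity of each spot is linear and was background-corrected by Agilent Feature Extraction 10.7.3.1, per the file headers. The authors also deposited a table of log2 values; the submitters' processing notes name limma, and the table's columns correlated at 0.99995 or higher with normexp-corrected, quantile-normalized intensities. For this report, log2 processed intensity minus each array's 75th percentile was used, without outlier spots. Spots of a probe were averaged. A probe had to exceed background clearly on 3 or more of 8 arrays. Accessions were matched to RefSeq (GRCm38.p6), which named 26056 of 55681 probes. The brightest probe stood for a gene. All 35 genes passed the filter, 30 of them above background on all 8 arrays.

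The fit used limma 3.58.1 (R 4.3.3) without covariates, tested on simulated data first, and p-values were adjusted by Benjamini-Hochberg over 33630 genes and features. Single genes also had a two-sided exact permutation test over 56 splits (smallest p 0.0179). Correlations used Python 3.11.15 and scipy 1.17.1. The number of arrays limits the precision. All 35 genes could be named; values are in full for the 10 largest differences, for genes whose groups did not overlap and for any of opposite sign. The genes and lists were chosen with earlier results of these data known. Alternatives covered scaling, background correction, the filter, probe choice, slide and replicate blocks, moderation, array weights, the deposited table and leaving out each array. Deviations of same-numbered samples from their group means were hardly correlated (r = 0.0645, -0.0841 and -0.0739). With group means taken over so few arrays, this cannot show whether the numbers pair samples. The main fit did not pair them.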

Additional observations from a re-analysis of the deposited data

Results flagged for a closer look

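In 3 of the 35 genes, wild-type replicate 5 stood apart from the other 4 wild-type arrays by Dixon's criterion for 5 samples; chance marks about 1 in 20 groups, and 35 wild-type groups were tested. F12 was 0.0471 on wild-type replicate 5 (log2 relative to the array's 75th percentile), where the other wild-type arrays ranged from -3.98 to -3.25. Proz was 0.728 there, where the others ranged from -2.94 to -1.91. C8b was -1.47 there, where the others ranged from -4.86 to -3.97. In all 3 the value lay between the lowest and the highest labelled p21-null array.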

How the results depend on the processing

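The median difference of the 35 genes stayed positive under every alternative run, from 2.11 to 3.05. Of 730 single-gene values under 21 alternatives, 719 kept their sign. The 11 that turned belonged to 3 genes. Hrg was 0.0036 with normexp, 0.23 with slide as a fixed block, 0.015 in the deposited table, 0.20 without p21-null replicate 3 and 0.16 without wild-type replicate 1 (leaving out single arrays, -0.45 to 0.20). F10 was -0.0022 without p21-null replicate 2 and -3.1e-05 without wild-type replicate 2 (-0.0022 to 0.38). C6 was -0.51 with the replicate block, -0.66 without p21-null replicate 1, and -0.15 and -0.21 without wild-type replicates 2 and 4 (-0.66 to 0.73). The cause was not tested.

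Past an adjusted p of 0.05, limma called 0 of all features (3401 at an unadjusted p under 0.05), 4 with normexp and 8 with array weights, and between 0 and 1 on leaving out single arrays (1 without wild-type replicate 4). Array weights also gave 2007 features at p under 0.01 and 2-fold, where equal weights gave 991, and 1 of the 35 genes past the adjusted threshold, F11 (3.62, adjusted p 0.0467, range over alternatives 0.0467 to 0.778); those weights ran from 0.535 to 3.01, highest for p21-null replicate 3. Leaving out single arrays gave 309 to 1306 features at that rule and 2 to 23 of the 35 genes, where 0.529% to 2.78% of all features were higher by it. Between 11 and 28 of the 35 were then without overlap, the 28 being without p21-null replicate 2, where 10.3% of all features were. With the replicate block, 23 of the 35 genes and 942 features met the rule and the median difference was 2.85; it changed no call at the adjusted threshold. With slide as a fixed block 14 of the 35 met it (2.07% of all features were higher by it). The dimmest probe of each gene, tried after seeing the data, gave 18 (2.0% of all features were higher by it). Mbl2, C9, F9, F13b and Masp1 were near background on some arrays, which limits their values.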

Other observations

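The platelet genes Gp9 and Ppbp had another highest array than most clotting and complement genes. Gp9, part of the receptor for von Willebrand factor, stood at 0.42, -0.62 and 3.07 on the labelled p21-null arrays, against -3.28, -5.22, -3.44, -2.88 and 0.65 on the wild-type arrays. Ppbp, a platelet chemokine, stood at 0.52, 0.01 and 3.36 on the labelled p21-null arrays, against -1.87, -5.08, -4.21, -1.42 and 1.21 on the wild-type arrays. Both were highest on p21-null replicate 3. The clotting and complement genes were highest on p21-null replicate 1 in 27 of 35 cases and on replicate 3 in 6. The rest of the array pattern was shared. The 4 highest arrays of both were the 3 labelled p21-null arrays and wild-type replicate 5, as for 22 of the 35 genes. Wild-type replicate 2 was lowest. The differences of Gp9 and Ppbp were 3.79 ± 1.25 and 3.57 ± 1.38 (SE, limma adjusted p = 0.368 and 0.426). The vessel wall genes Pecam1 (0.70), Cdh5 (0.66), Kdr (-0.34) and Emcn (0.20) had unadjusted p above 0.05.

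Red cell genes divided. The membrane skeleton protein Epb42 (2.84 ± 0.71) and the regulators Klf1 (2.36 ± 0.67) and Gata1 (2.30 ± 0.67) were higher on every labelled p21-null array than on every wild-type array, a pattern of 4.4% of all features. The globins Hba-a1 (0.17 ± 0.34), Hbb-bt (-0.04 ± 0.36) and Hbb-y (-0.05 ± 0.56) had unadjusted p above 0.05 (SE throughout; limma adjusted p = 0.288 for Epb42 and 0.989 for Hbb-bt). Globin copies are near-identical, which makes single globin values uncertain. Among hepatocyte genes, Cps1 (-0.17), Fetub (0.10) and Afp (0.81) stayed with unadjusted p above 0.05 while Hp differed by 3.39 ± 0.58 (adjusted p = 0.283).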
